A study of Mus musculus with 18 samples.

Results

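Among mouse naive, germinal center and plasma cells, the receptor for the survival ligands BAFF and APRIL that was most abundant in plasma cells was nearly absent from the others, and the anti-apoptotic Bcl2 transcript was lowest in germinal center cells. The 10 genes described here are the 3 receptors of these ligands (Tnfrsf17, Tnfrsf13b and Tnfrsf13c) and 7 genes of the Bcl2 family (Mcl1, Bcl2, Bcl2l1, Bcl2l11, Bbc3, Bax and Bak1). They were taken by symbol from a table of 21761 mouse genes, and all 10 were found there.

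mRNA was sequenced in 18 libraries of 5000 sorted cells each, 3 libraries in each of 6 groups. Dnmt3-deficient mice carried a Cre allele that acts in B cells together with Dnmt3a fl/fl and Dnmt3b fl/fl, and Dnmt3-sufficient littermates carried both floxed genes in homozygous form without Cre, so the presence of Cre and the deletion cannot be told apart. This Cre is active from an early stage of B cell development, so the deletion preceded all 3 cell types. The mice were adults of both sexes on a mixed B6 and 129 background. Naive B cells (nB, B220+ Fas- GL7-) came from lymph nodes of mice that had not been immunized. Germinal center B cells (GCB, B220+ Fas+ GL7+ PE+) came from lymph nodes, and plasma cells (BMPC, CD138+) from bone marrow, 30 days after immunization with phycoerythrin (PE) in complete Freund's adjuvant. Each GCB library pooled mice, and the immunization, the organ and the cell type cannot be told apart in comparisons with nB. Both genotypes' BMPC were sorted on CD138, the product of Sdc1, irrespective of the antigen they recognize.

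BAFF (Tnfsf13b) and APRIL (Tnfsf13) are survival ligands of the TNF family. The BAFF receptor encoded by Tnfrsf13c binds BAFF and sustains mature B cells through non-canonical NF-kB, TACI encoded by Tnfrsf13b binds both ligands, and BCMA encoded by Tnfrsf17 binds APRIL with high affinity and is known for maintaining long-lived plasma cells through Mcl1. Mcl1, Bcl2 and Bcl-xL (Bcl2l1) hold the pore-forming proteins Bax and Bak in check at the mitochondrion, and BH3-only proteins such as Bim (Bcl2l11) and Puma (Bbc3) release that hold.

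Dnmt3a and Dnmt3b add methyl groups to cytosine in CpG, so the stretches just upstream of the 3 receptor genes and of Bcl2 are shown with every CpG in capitals. The 250 bases before the RefSeq transcription start were read 5' to 3' on the gene's strand (RefSeq, GRCm38.p6), and each was found at 1 place in the NCBIM37 (mm9) genome, the build of the files. They lie at chr16:11313652-11313901 (plus strand) for Tnfrsf17, chr11:60940007-60940256 (plus strand) for Tnfrsf13b, chr15:82054811-82055060 (minus strand) for Tnfrsf13c and chr1:108610868-108611117 (minus strand) for Bcl2.
Tnfrsf17: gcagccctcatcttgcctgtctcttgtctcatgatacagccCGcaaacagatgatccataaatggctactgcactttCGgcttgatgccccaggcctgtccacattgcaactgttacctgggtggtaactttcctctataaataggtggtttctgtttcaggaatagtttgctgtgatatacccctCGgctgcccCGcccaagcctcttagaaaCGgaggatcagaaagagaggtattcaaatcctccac
Tnfrsf13b: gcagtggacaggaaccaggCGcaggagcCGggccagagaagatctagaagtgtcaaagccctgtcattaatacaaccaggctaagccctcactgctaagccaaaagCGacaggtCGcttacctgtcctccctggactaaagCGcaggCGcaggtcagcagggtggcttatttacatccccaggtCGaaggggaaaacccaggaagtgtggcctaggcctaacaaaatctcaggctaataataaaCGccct
Tnfrsf13c: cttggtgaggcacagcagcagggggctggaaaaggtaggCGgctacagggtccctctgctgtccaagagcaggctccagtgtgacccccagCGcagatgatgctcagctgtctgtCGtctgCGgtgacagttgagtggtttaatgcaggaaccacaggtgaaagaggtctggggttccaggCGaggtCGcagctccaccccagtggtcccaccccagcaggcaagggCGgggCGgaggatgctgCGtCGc
Bcl2: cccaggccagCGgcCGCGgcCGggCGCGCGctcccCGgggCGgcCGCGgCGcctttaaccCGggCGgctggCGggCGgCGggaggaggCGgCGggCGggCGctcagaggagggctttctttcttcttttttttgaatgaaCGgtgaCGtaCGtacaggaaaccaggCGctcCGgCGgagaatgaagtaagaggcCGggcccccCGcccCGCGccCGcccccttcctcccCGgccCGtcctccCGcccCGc

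The window of Tnfrsf17 held 5 CpG, that of Tnfrsf13b 8 and that of Tnfrsf13c 10, close to the middle of the range, since 49.6%, 59.7% and 64.4% of the 32851 RefSeq windows of the same length held as many or fewer (median 6). The Bcl2 window held 36, and 97.8% of windows held as many or fewer. All 10 genes had a window in this table. Of the other genes, Mcl1 held 26, the 3 windows of Bbc3 27, 23 and 37, the 2 of Bcl2l11 24 and 30, the 3 of Bcl2l1 0, 11 and 12, Bax 14 and Bak1 8. These are counts in the reference sequence, and no methylation was analysed here.

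Values are FPKM, read counts scaled by exon length and by all reads counted on the genes of the table. Depth was 6692516 to 8987922 such reads per library in nB, between 7644544 and 8903872 in GCB and between 1355231 and 3803197 in BMPC. The median SD between libraries of a group was 0.27 to 0.41 on the log2(FPKM + 1) scale in nB and GCB and 0.78 to 0.82 in BMPC. Summed over 6 mature B cell markers the level was 3060 to 3897 FPKM in nB and 103 to 218 in BMPC, and 6 germinal center markers summed to 726 to 949 in GCB and 17.4 to 73.6 elsewhere. Plasma cell markers (6 genes) summed to 18743 to 50988 in BMPC and at most 1518 in the others. The germinal center markers included Fas (198 to 290 FPKM in GCB) and the plasma cell markers Sdc1, whose products were used in sorting. BMPC also held transcripts of other marrow cells. The study's cytometry panels carried antibodies to myeloid and T cell surface proteins, given as a means of removing auto-fluorescent cells. Early B cell markers (5 genes) summed to 344 to 620 FPKM there against at most 27.2 in nB, and neutrophil markers (6 genes) to 9.37 to 569 against 0. Most of the early B cell sum was Dntt, at 305 to 581 FPKM in BMPC, while Rag1 and Vpreb1 were each at 0 in 3 of 6 BMPC libraries. Of the neutrophil markers, Camp and Ltf were each at 0 in 5 of 6 BMPC libraries and Elane in 4. T cell markers (5 genes) summed to 53.5 to 198 against 25.3 to 71.4 in nB. That BMPC sum came almost wholly from Cd3d, Cd3e and Cd3g. Cd4 and Cd8a went the other way, at most 0.111 and 0.504 FPKM in BMPC against up to 9.47 and 10.3 in nB. The 4 erythroid markers in the table summed to 149 to 2194 in BMPC against at most 218 in nB, and macrophage markers (5 genes) to at most 13.2. The part of these cells in any BMPC value below was not tested, and less RNA per cell cannot be told apart from fewer cells of a type. Whole-gene FPKM of Dnmt3a and Dnmt3b, which does not isolate the floxed exons, cannot check the deletion. Dnmt3a was at 2.35 to 5.18 FPKM in sufficient and 2.24 to 4.33 in deficient nB, which overlap. In GCB, Dnmt3b held 0, 0.676 and 0.303 FPKM in sufficient and 1.10, 0.805 and 0.744 in deficient libraries, higher in the latter without overlap. These low values rested on 0 to 26 reads in sufficient and 26 to 42 in deficient libraries. Of all genes tested (defined below), 10.6% did not overlap between the genotypes in GCB.

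A gene passed the test, or was called, where limma gave an adjusted p no higher than 0.05 and log2(FPKM + 1) differed by 1 or more, across the 11522 genes above 1 FPKM in at least 2 libraries. Of the 10 genes, 9 passed that filter on low values and Bbc3 did not. Tnfrsf17 passed it only through GCB and BMPC libraries.

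**Figure D1:**
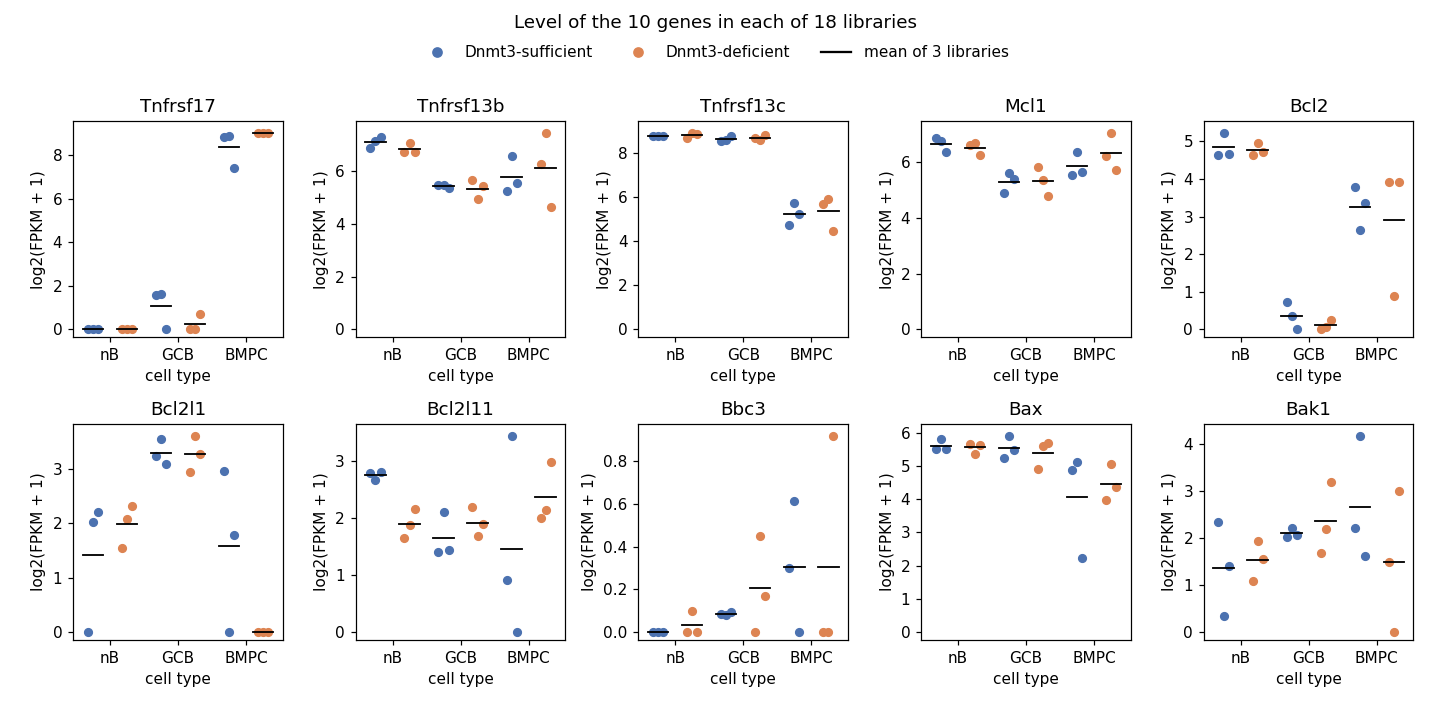
Level of each of the 10 genes on the log2(FPKM + 1) scale in the 18 libraries, by cell type, with blue points for Dnmt3-sufficient and orange points for Dnmt3-deficient libraries and a black line at the mean of each 3. Tnfrsf17 lies at 0 in all 6 nB libraries and above 172 FPKM in all 6 BMPC libraries, Tnfrsf13c is lowest in BMPC, and Bcl2 is below 1 FPKM in all 6 GCB libraries.

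Tnfrsf17 was the most abundant of the 3 receptors in plasma cells. The gene lies on the plus strand at chr16:11313905-11320167 (positions of genes are from GENCODE vM1 on mm9). No read was counted in any of the 6 nB libraries. The 3 Dnmt3-sufficient GCB libraries held 2.04, 2.07 and 0 FPKM, and the 3 Dnmt3-deficient ones 0, 0 and 0.609. In BMPC the sufficient libraries held 465, 482 and 173 FPKM and the deficient ones 523, 516 and 518. No BMPC library overlapped with a library of the other cell types. With each nB library set at 3 reads, the level in BMPC was at least 775-fold higher in sufficient and at least 1058-fold higher in deficient mice, with an adjusted p of 9.40e-07 and 7.27e-07 (limma). Against GCB the log2 change was 7.33 ± 0.53 (SE) in sufficient mice (adjusted p = 1.23e-05) and 8.79 ± 0.53 in deficient mice (adjusted p = 3.91e-06). The small GCB signal rested on 14 and 15 reads in 2 sufficient libraries and 4 reads in 1 deficient library. In sufficient mice it was called against nB at the edge of the threshold (log2 change 1.07 ± 0.38, adjusted p = 0.0495). That call was lost without any 1 of the sufficient nB libraries (adjusted p = 0.0966 to 0.0990) and without GCB replicate 1 (0.166) or 2 (0.169), and also under 7 other processing choices, with an adjusted p of up to 0.185.

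Tnfrsf13c went the opposite way. This gene, on the minus strand at chr15:82052174-82054790, was the most abundant of the receptors in nB, at 427, 433 and 424 FPKM in sufficient and 408, 472 and 451 in deficient libraries. GCB held nearly as much, with 361, 377 and 434 FPKM in sufficient and 403, 377 and 439 in deficient libraries. The GCB and nB ranges overlapped, and the log2 difference was -0.13 in both genotypes, with 95% intervals of -0.34 to 0.07 in sufficient and -0.34 to 0.08 in deficient mice. BMPC held 25.5, 52.1 and 35.9 FPKM in sufficient and 50.1, 58.2 and 21.0 in deficient libraries, all below every library of the other types. The fall from nB to BMPC was 11.3-fold in sufficient mice (log2 change -3.52 ± 0.36, adjusted p = 9.54e-05) and 10.3-fold in deficient mice (-3.45 ± 0.36, adjusted p = 1.26e-04), as ratios of group means. Against GCB the log2 changes were -3.39 and -3.33, both with an SE of 0.36 and adjusted p of 1.58e-04 and 1.55e-04.

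Tnfrsf13b, on the plus strand at chr11:60940257-60962874, was present in all 18 libraries. It stood at 116, 139 and 155 FPKM in sufficient and 104, 132 and 104 in deficient nB. In GCB it fell to 43.4, 43.3 and 40.5 in sufficient and 49.5, 30.0 and 41.9 in deficient libraries, below every nB library. The change was -1.66 ± 0.18 on the log2 scale in sufficient mice (adjusted p = 8.38e-05) and -1.48 ± 0.18 in deficient mice (adjusted p = 1.84e-04), where the call was lost with 1 spread for all 18 libraries (adjusted p = 0.0634). BMPC spread from 37.2, 95.7 and 45.7 FPKM in sufficient to 76.9, 174 and 23.9 in deficient libraries, a range that takes in both other cell types. BMPC did not pass the test against nB, with log2 differences of -1.30 (95% interval -2.63 to 0.04) and -0.70 (-2.04 to 0.63). Nor did it pass against GCB, at 0.36 (-1.001 to 1.72) and 0.78 (-0.58 to 2.14).

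Since FPKM is per exon length, the 3 receptors can be set side by side within a library. Of their summed FPKM, Tnfrsf13c made up 73.3% to 81.3% in nB and 88.8% to 92.6% in GCB, and 3.73% to 14.1% in BMPC. Tnfrsf17 made up 67.9% to 92.0% in BMPC, at most 0.501% in GCB and 0% in nB. The share of Tnfrsf13b was 18.7% to 26.7% in nB, between 7.37% and 10.9% in GCB and between 4.24% and 23.3% in BMPC. The sum itself changed little in comparison, with medians of 564 FPKM in nB, 437 in GCB and 597 in BMPC and a wide BMPC range of 254 to 749. The order of levels was Tnfrsf13c, Tnfrsf13b, Tnfrsf17 in each of the 12 nB and GCB libraries, and Tnfrsf17 came first in each of the 6 BMPC libraries.

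**Figure D2:**
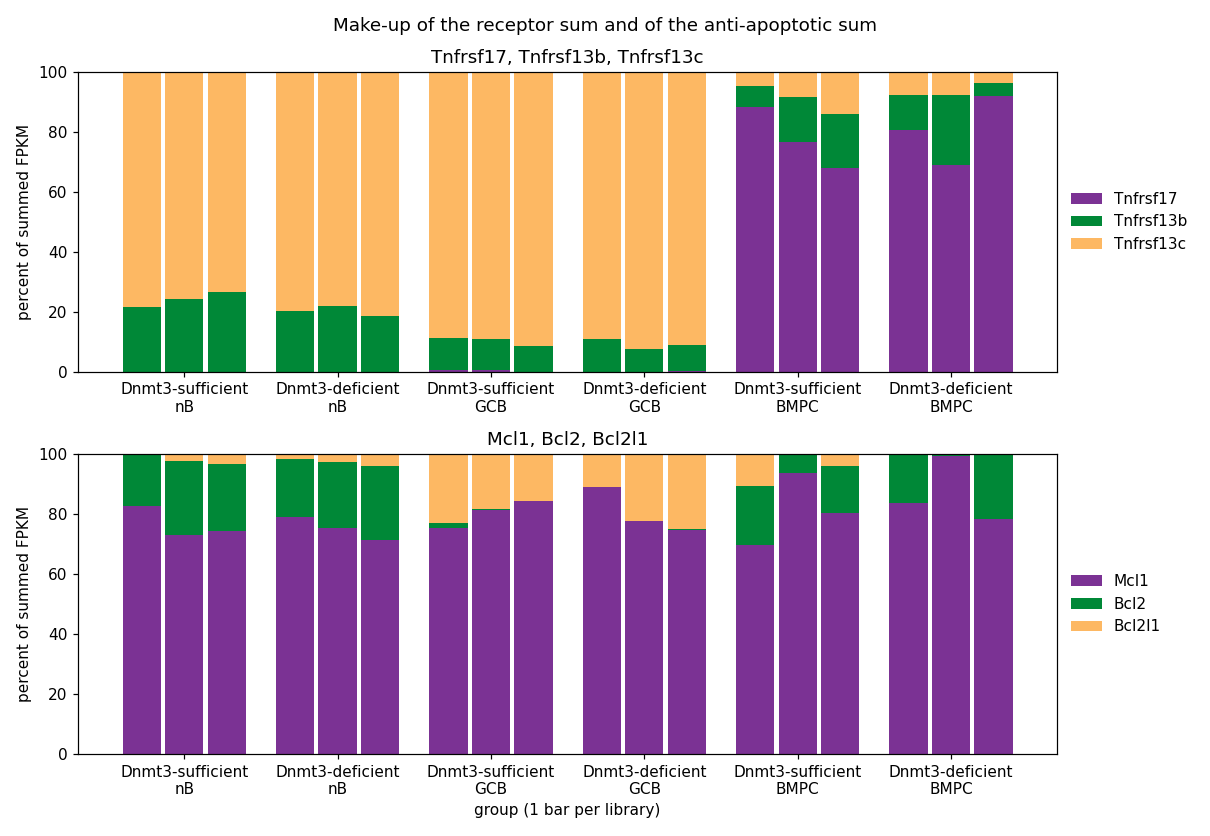
Share of each gene in the summed FPKM of the 3 receptors (top) and of Mcl1, Bcl2 and Bcl2l1 (bottom), in percent, with 1 bar per library. Tnfrsf17 fills 67.9% to 92.0% of the receptor sum in BMPC and Tnfrsf13c over 73% in nB and GCB. Mcl1 fills most of the lower bars in every library, and the Bcl2 part is at most 1.76% in GCB.

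Mcl1 was the most abundant of Mcl1, Bcl2 and Bcl2l1 in every library. The gene lies on the plus strand at chr3:95462643-95467099, and its product is short-lived. It stood at 114, 107 and 80.9 FPKM in sufficient and 96.6, 102 and 74.1 in deficient nB. In GCB it fell to 28.2, 48.0 and 40.9 in sufficient and 55.3, 39.5 and 26.2 in deficient libraries, with no overlap with nB. The log2 change was -1.36 ± 0.28 in sufficient mice (adjusted p = 0.00393) and -1.20 ± 0.28 in deficient mice (adjusted p = 0.00834). Without deficient GCB replicate 3 the second change was -0.93, below the minimum size (adjusted p = 0.0262). BMPC held 45.1, 79.8 and 48.8 FPKM in sufficient and 72.4, 130 and 51.5 in deficient libraries, a range that spans parts of both other types. Mcl1 in BMPC did not pass against nB, at -0.82 (95% interval -1.60 to -0.04) and -0.19 (-0.98 to 0.59) on the log2 scale. Against GCB it did not pass in sufficient (0.54 ± 0.41) or deficient mice (1.01 ± 0.41, adjusted p = 0.0965), where it was called after rescaling (1.31, adjusted p = 0.0406) and with 1 spread for all 18 libraries (adjusted p = 0.0464).

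Bcl2 showed the largest fall of the 9 tested genes from nB to GCB. The founding anti-apoptotic member lies on the minus strand at chr1:108434755-108610851. It stood at 23.8, 36.3 and 24.2 FPKM in sufficient and 23.8, 30.1 and 25.5 in deficient nB, from 1234 to 2149 reads per library. GCB held 0.657, 0.276 and 0.0169 FPKM in sufficient and 0, 0.0465 and 0.192 in deficient libraries, from 0 to 43 reads. The log2(FPKM + 1) change was -4.47 ± 0.27 in sufficient mice (adjusted p = 1.71e-06) and -4.67 ± 0.27 in deficient mice (adjusted p = 1.44e-06). In BMPC the sufficient libraries held 12.7, 5.20 and 9.33 FPKM and the deficient ones 14.1, 0.858 and 14.1. Every BMPC library lay above every GCB library and below every nB library, with deficient replicate 2, the shallowest of the 18 libraries, standing apart at 9 reads. BMPC exceeded GCB by 2.89 ± 0.75 on the log2 scale in sufficient mice (adjusted p = 0.0185) and by 2.80 ± 0.75 in deficient mice (adjusted p = 0.0193). The first call was lost without sufficient GCB replicate 2 (adjusted p = 0.0605) or 3 (0.0698). The second was lost without deficient GCB replicate 1 (0.0616), 2 (0.0587) or 3 (0.0549) and without deficient BMPC replicate 1 (0.0523) or 3 (0.0559). Against nB, BMPC was lower by a log2 difference of -1.58 (95% interval -3.20 to 0.05) in sufficient and -1.86 (-3.49 to -0.24) in deficient mice, neither of which passed (adjusted p = 0.133 and 0.0812). The deficient difference was called without deficient BMPC replicate 1 (-2.37, adjusted p = 0.0484) or 3 (-2.37, 0.0490).

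Bcl2l1 differed the other way between nB and GCB, low in nB and highest in GCB. The gene for Bcl-xL is on the minus strand at chr2:152593052-152657464. nB held 0, 3.07 and 3.61 FPKM in sufficient and 1.92, 3.24 and 3.98 in deficient libraries. GCB held 8.51, 10.8 and 7.54 FPKM in sufficient and 6.70, 11.3 and 8.69 in deficient libraries, all above nB. The rise was called in sufficient mice (log2 change 1.89 ± 0.53, adjusted p = 0.0186), but not without sufficient GCB replicate 2 (1.76, adjusted p = 0.0626). In deficient mice the difference of 1.30 ± 0.53 did not pass (adjusted p = 0.0888). BMPC held 6.76, 0 and 2.45 FPKM in sufficient libraries, and no read was counted in the 3 deficient ones. With those set at 3 reads each, deficient BMPC lay at least 20.1-fold lower than deficient GCB, which passed (adjusted p = 0.00469). In sufficient mice the difference of -1.72 ± 0.66 did not pass (adjusted p = 0.0855), and it did without BMPC replicate 1 (-2.41, adjusted p = 0.0135). That replicate held 512 FPKM of neutrophil markers, against 63.4 and 80.0 in the other 2, and the deficient replicates held 9.37, 569 and 520. The part of these cells in the Bcl2l1 level was not tested.

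Of the summed FPKM of Mcl1, Bcl2 and Bcl2l1, Mcl1 made up 69.8% to 99.3% over all libraries, with medians of 74.9% in nB, 79.5% in GCB and 82.1% in BMPC. Bcl2 made up 17.3% to 24.9% in nB, between 0% and 1.76% in GCB and between 0.655% and 21.5% in BMPC. For Bcl2l1 the share was 0% to 3.85% in nB, between 10.8% and 24.8% in GCB and between 0% and 10.5% in BMPC. Among these genes, the second place behind Mcl1 was held by Bcl2 in each nB library and by Bcl2l1 in each GCB library. The sum itself was 104 to 146 FPKM in nB, between 35.1 and 62.0 in GCB and between 60.6 and 131 in BMPC. Another anti-apoptotic family gene, Bcl2a1b, was left out of this sum, and near-identical copies could share its reads. It stood at 49.5 to 92.5 FPKM in nB, between 58.8 and 70.0 in GCB and between 0 and 64.7 in BMPC. Its GCB range lay above that of Mcl1 (26.2 to 55.3 FPKM). From nB to GCB it was not called, with log2 differences of -0.15 ± 0.23 in sufficient and 0.03 ± 0.23 in deficient mice.

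Among the BH3-only genes, Bcl2l11 was measured at low levels and Bbc3 barely at all. Bcl2l11, which encodes Bim and lies on the plus strand at chr2:127951774-127988283, stood at 5.91, 5.34 and 6.07 FPKM in sufficient nB and at 2.16, 2.68 and 3.47 in deficient nB. GCB held 1.66, 3.33 and 1.72 FPKM in sufficient and 3.58, 2.21 and 2.71 in deficient libraries. In sufficient mice GCB was lower by -1.10 ± 0.27 on the log2 scale (adjusted p = 0.00983), but the change fell short of the minimum size without GCB replicate 1 (-0.98) or 3 (-0.996). In deficient mice the difference was 0.02 (95% interval -0.58 to 0.62). The test of the difference between these differences did not pass, at 1.12 ± 0.38 with an adjusted p of 0.759. BMPC scattered from 0 to 9.96 FPKM. Bbc3, on the plus strand at chr7:16894965-16903554, reached at most 0.893 FPKM and 6 reads in any library, so no difference in it was detectable at this depth.

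Bax and Bak1, the pore-forming genes, passed in no comparison of all libraries. Bax, on the minus strand at chr7:52717065-52722268, held 44.4, 54.8 and 44.5 FPKM in sufficient and 49.7, 40.0 and 48.6 in deficient nB. GCB was alike in range, with 36.9, 59.1 and 43.5 in sufficient and 28.9, 47.4 and 51.0 in deficient libraries, and the log2 differences from nB were -0.06 (95% interval -0.58 to 0.46) and -0.15 (-0.67 to 0.37). BMPC held 28.6, 33.4 and 3.70 FPKM in sufficient and 14.6, 32.5 and 19.4 in deficient libraries, all below nB. The differences of -1.53 ± 0.66 (adjusted p = 0.107) and -1.09 ± 0.66 (adjusted p = 0.238) did not pass, and the first passed without sufficient BMPC replicate 2 (-2.04, adjusted p = 0.0498). Bak1, on the minus strand at chr17:27156755-27165954, stood at 0.259 to 4.06 FPKM in nB, between 2.19 and 8.14 in GCB and between 0 and 17.0 in BMPC. Per exon length, Bax exceeded Bak1 in every library.

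**Figure D3:**
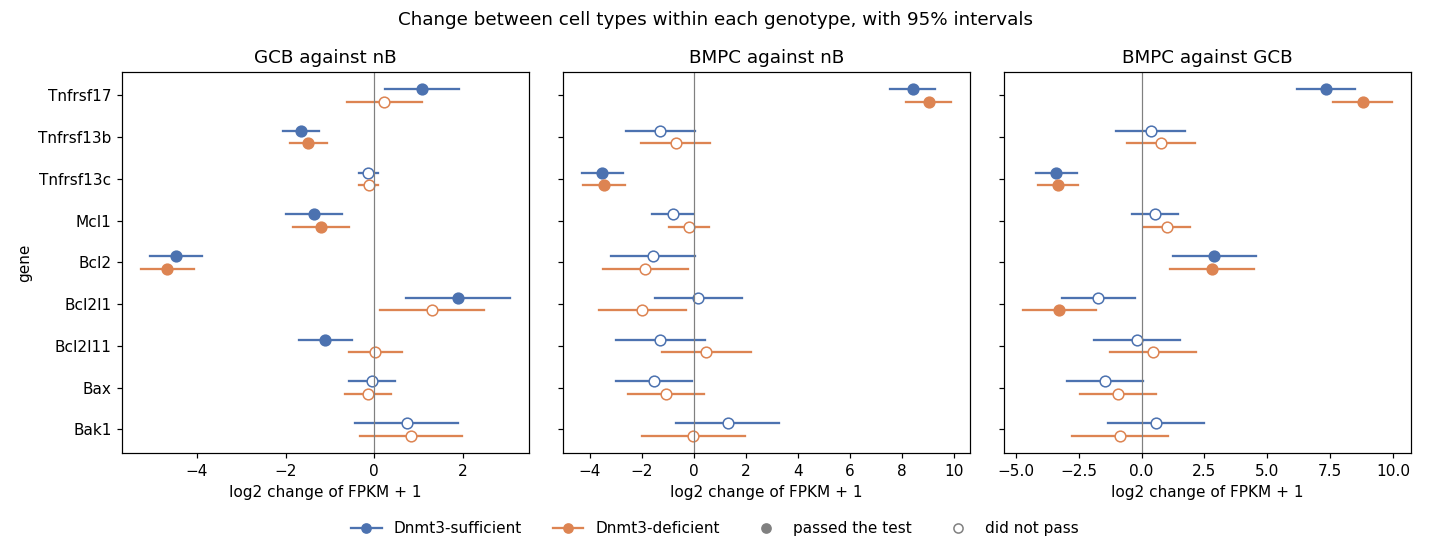
Change between cell types in log2(FPKM + 1) for the 9 genes tested, as points with 95% intervals, in blue for Dnmt3-sufficient and orange for Dnmt3-deficient mice. Filled points passed the test: Tnfrsf17 and Tnfrsf13c did so in both comparisons with BMPC and in both genotypes, and Tnfrsf13b, Mcl1 and Bcl2 fell from nB to GCB in both genotypes.

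Counted together, 2 of the 9 genes tested rose and 4 fell from nB to GCB in sufficient mice, where 11.4% of all genes tested rose and 15% fell. In deficient mice 0 rose and 3 fell, against 10% and 13.5% of all genes. From nB to BMPC 1 rose and 1 fell in each genotype, against 7.8% and 19.6% of all genes in sufficient and 5.43% and 21.6% in deficient mice. From GCB to BMPC 2 rose and 1 fell in sufficient mice (5.36% and 15.6% of all genes), and 2 rose and 2 fell in deficient mice (5.17% and 20%). The median change of all genes between nB and BMPC was itself -0.70 in sufficient and -0.84 in deficient mice on the log2 scale, and rescaling the libraries to a common median ratio moved it to -0.64 and -0.67. Against that median, rescaled Tnfrsf17 was higher by 8.98 and 9.80 and rescaled Tnfrsf13c lower by a log2 difference of -2.81 and -2.52. The comparisons share their nB, GCB and BMPC libraries.

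The comparison of genotypes asks whether loss of Dnmt3a and Dnmt3b altered these transcripts, and none of the 9 genes was called between the genotypes in any cell type. In nB 0% of the genes tested were called by limma, in GCB 0% and in BMPC 0%. At an unadjusted p under 0.05 there were 592, 724 and 688 genes, among them 1 of the 9, Bcl2l11 in nB. On recovered reads with voom 0, 0 and 26 genes were called, and with 1 spread for all 18 libraries 6, 0 and 459, in neither case any of the 9. The intervals show how large a difference remains possible. For Tnfrsf13c the 95% interval of deficient minus sufficient was -0.15 to 0.25 in nB and -0.20 to 0.31 in GCB on the log2 scale, and -1.13 to 1.37 in BMPC. For Tnfrsf13b it was -0.66 to 0.12, -0.58 to 0.39 and -1.73 to 2.38, and for Mcl1 -0.62 to 0.33, -0.82 to 0.86 and -0.59 to 1.56. The BMPC interval of Bcl2 ran from -2.96 to 2.26.

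Bcl2l11 in nB and Tnfrsf17 in BMPC were the cases in which the 3 libraries of one genotype did not overlap with the 3 of the other. Of all genes tested, 8.84% did not overlap in nB, 10.6% in GCB and 10.3% in BMPC, and of the 9 genes it was 1, 0 and 1. Bcl2l11 was lower in deficient nB, at a mean of 2.77 against 5.77 FPKM (log2 difference -0.86 ± 0.27, unadjusted p = 0.0225, adjusted p = 0.902 by limma). Tnfrsf17 was higher in deficient BMPC, with means of 519 and 373 FPKM (0.62 ± 0.43, 95% interval -0.49 to 1.72, adjusted p = 0.782), and the gap came mainly from sufficient replicate 3 at 173 FPKM. That replicate also had the lowest summed plasma cell markers of the 6 and the highest mature B cell, early B cell and erythroid sums, and the part of this in its Tnfrsf17 level was not tested. Bcl2l1, with reads in 2 of 3 sufficient and 0 of 3 deficient BMPC libraries, gave a difference of -1.58 (95% interval -3.53 to 0.37, adjusted p = 0.779).

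Nor did the change between cell types differ between the genotypes for any of the 9 genes by the test of that difference (interaction). For GCB against nB 0.0347% of all genes passed it, and for BMPC against nB 0.226%. The interaction of Tnfrsf17 for BMPC against nB was 0.62 (95% interval -0.62 to 1.85), that of Tnfrsf13c 0.07 (-1.06 to 1.197) and that of Bcl2 for GCB against nB -0.20 (-1.04 to 0.64).

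**Figure D4:**
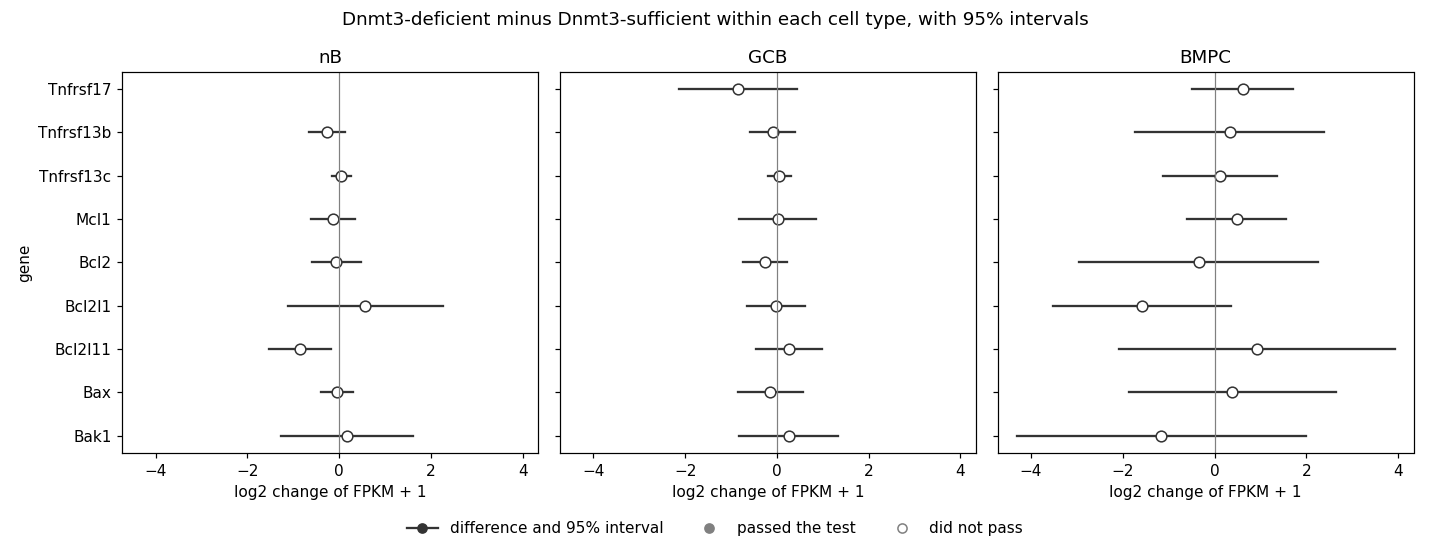
Difference between genotypes (Dnmt3-deficient minus Dnmt3-sufficient) in log2(FPKM + 1) with 95% intervals within nB, GCB and BMPC, for the 9 genes tested. Tnfrsf17 in nB is left out because all 6 libraries are at 0, and no point is filled, since none passed. The intervals are widest in BMPC, where that of Bcl2 runs from -2.96 to 2.26.

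Further genes of the same pathways were taken from lists. Of the ligands, Tnfsf13 (APRIL) was at 0 in all nB and GCB libraries and had reads in 3 of 6 BMPC libraries, up to 9.35 FPKM, and Tnfsf13b (BAFF) reached at most 0.799 FPKM anywhere. Of the 14 genes for these ligands and the signalling below the receptors, 13 were tested. From nB to GCB 6 fell in sufficient mice (Traf3, Traf6, Birc3, Chuk, Nfkb2 and Relb) and 3 in deficient mice (Birc3, Map3k14 and Nfkb2), and none rose, where 15% and 13.5% of all genes tested fell. Nfkb2, the precursor of the non-canonical NF-kB subunit p52, fell by 1.98 ± 0.28 on the log2 scale in sufficient mice (adjusted p = 3.79e-04) and by 2.38 ± 0.28 in deficient mice (adjusted p = 1.25e-04), from 27.0 to 43.8 FPKM in nB to 4.01 to 10.1 in GCB. The median log2 change of the list was -0.99 and -0.80, against -0.11 and -0.13 over all genes.

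From nB to BMPC 7 of the 13 fell and 1 rose in sufficient mice, and 6 fell and 1 rose in deficient mice. Of all genes tested 19.6% fell and 7.8% rose in sufficient and 21.6% fell and 5.43% rose in deficient mice. Those that fell in both were the adaptors Traf1 and Traf5, the ubiquitin ligase gene Birc3, Map3k14, which encodes the kinase NIK that starts the non-canonical pathway, and Nfkb2. Traf5 was at 32.2 to 46.8 FPKM in nB and at 0 in 4 of 6 BMPC libraries, and fell by 4.79 ± 0.82 in sufficient (adjusted p = 0.00191) and 4.40 ± 0.82 in deficient mice (adjusted p = 0.00331). Traf1 was likewise at 0 in 4 of 6 BMPC libraries. The gene that rose was Sdc1, which encodes CD138, a heparan sulfate carrier that binds APRIL, and which was used to sort BMPC. The list's median was -2.77 and -3.21, against -0.70 and -0.84 over all genes.

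Of 12 other Bcl2 family genes 9 were tested. Bid and Bad, both BH3-only, rose from nB to GCB in both genotypes, where 11.4% and 10% of all genes tested rose in sufficient and deficient mice. Bid stood at 33.0 to 60.2 FPKM in nB, between 137 and 174 in GCB and between 8.66 and 38.4 in BMPC, and its rise was 1.69 ± 0.21 in sufficient (adjusted p = 1.65e-04) and 1.64 ± 0.21 in deficient mice (adjusted p = 2.17e-04). Pmaip1, which encodes the Mcl1-binding Noxa, stood at 3.88 to 12.4 FPKM in nB and 2.58 to 17.4 in GCB and at most 0.665 in BMPC, and its fall passed in each genotype against either cell type. Bcl2a1d, one of several near-identical copies whose reads could be shared, fell from 24.6 to 42.4 FPKM in nB to 0 to 8.46 in BMPC. From nB to BMPC 1 rose and 3 fell in sufficient and 0 rose and 4 fell in deficient mice, where 7.8% of all genes rose and 19.6% fell, and 5.43% rose and 21.6% fell. The median change of the list was -1.46 and -1.88, against -0.70 and -0.84 over all genes. None was called between genotypes.

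Downstream of the mitochondrion, 9 genes of the apoptosome and the caspases were all tested. Cycs, which encodes cytochrome c, rose from nB to GCB in both genotypes. It went from 52.3 to 93.6 FPKM in nB to 169 to 238 in GCB, a log2 change of 1.36 ± 0.20 in sufficient (adjusted p = 4.69e-04) and 1.52 ± 0.20 in deficient mice (adjusted p = 2.43e-04). Its highest levels were in BMPC, at 259 to 410 FPKM. Xiap, an inhibitor of caspases, fell from nB to BMPC in both genotypes, from 5.63 to 12.9 FPKM to 0.246 to 2.84.

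The genes with the profile most like that of a member were found by the root mean square (RMS) difference of log2(FPKM + 1) over the 18 libraries after each gene was centred on its mean. For Tnfrsf17 they were Gstm5 (0.99), Mt1 (1.03) and Tmem176a (1.09). Gstm5 was at 0 in nB and at 57.5 to 235 FPKM in BMPC. For Tnfrsf13c they were Irf8 (0.37), a transcription factor of B and myeloid cells, Inpp5d (0.39), which encodes the phosphatase SHIP1, and Slc25a14 (0.41). Irf8 stood at 61.7 to 96.7 FPKM in nB and 0.945 to 8.02 in BMPC. For Tnfrsf13b they were Tmem173 (0.35), which encodes STING, Ifi47 (0.45) and Slc50a1 (0.46). For Bcl2 they were Ddx58 (0.64), which encodes the RNA sensor RIG-I, Serpinb1a (0.66) and Il10rb (0.69), and Ddx58 stood at 27.4 to 41.6 FPKM in nB, at most 1.56 in GCB and between 4.38 and 21.8 in BMPC. For Mcl1 they were Bnip3l (0.38), Irak1 (0.40) and Vps28 (0.41). The likeness is a description over libraries that share their cell types.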

How the data were processed

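Reads were counted by the authors on exons of UCSC KnownGenes after mapping to mm9, and whether strand was used is not given in the sources used here, so overlapping and antisense genes are uncertain. The deposited FPKM are these counts per exon length, also deposited, and per total of reads on the listed genes. The submitters' notes name Picard, R 3.2.2 and edgeR 3.12.1. The authors' columns of log2 fold changes, p-values and FDR were not used, and 0 columns belonged to no library. FPKM times exon length gave whole reads (tolerance 0.01) in 100% of values. Reads were amplified and carry no molecular identifiers, so a floor of 3 reads per library covers counting error only.

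limma 3.58.1 in R 4.3.3 was fitted to log2(FPKM + 1) for genes above 1 FPKM in at least 2 libraries, two-sided, with intensity trend and Benjamini-Hochberg adjustment over 11522 genes. A change is on the log2(FPKM + 1) scale, which understates changes of low genes. Genotypes were compared on the 6 libraries of a cell type, and cell types and interactions on the 12 of both types. Samples came from the labels. By the study's methods the libraries came from different mice, pooled for GCB, and which mice entered which library is not in the labels. Alternatives were pseudocount, filter, rescaling, sex, library weights, voom, 1 spread for 18 libraries, a replicate block, thresholds and leaving out each library. The fit was tested on simulated data. All 10 members were named. The pathway lists, and the members, were chosen with earlier results of these data known. Some results are not reported here.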

Additional observations from a re-analysis of the deposited data

How the results depend on the processing

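Of 29 followed fold changes none changed direction: of 232 values under other settings 213 stayed on their side of the threshold, 12 lost the call and 7 gained it, and with 1 library left out the numbers were 160, 16 and 4 of 180. With 1 spread for all 18 libraries, 3 genes instead of 6 were called for GCB against nB in sufficient mice (Tnfrsf13b, Mcl1 and Bcl2), and 4 instead of 2 for BMPC against nB in deficient mice (Bcl2 and Bcl2l1 added). Tnfrsf13b in deficient GCB against nB then missed the threshold (adjusted p = 0.0634). That fit called 459 genes between genotypes in BMPC against 0 here, and for GCB against nB 1631 against 3050 in sufficient and 1489 against 2712 in deficient mice. It averages the smaller spread of nB and GCB with the larger one of BMPC. Genotype calls in nB were 0 here, 9 with a pseudocount of 0.1 and 6 in that fit. The interaction called 4 genes for GCB (0 to 11 over the settings without a library left out) and 26 for BMPC (64 in that fit), and 43 to 109 when a BMPC library was left out. At an adjusted p of 0.01, BMPC against nB gave 1758 and 1653 genes against 3162 and 3111, and against GCB 1332 and 1592 against 2410 and 2903. Leaving out single libraries gave 2 to 4 called genes for BMPC against nB in sufficient mice, with 4 without sufficient BMPC replicate 2 (Bcl2l11 and Bax added). In the same comparison library weights added Tnfrsf13b and voom added Bcl2, and sex as a covariate added Bcl2l1 in deficient mice. Bcl2l1 in sufficient GCB against nB was also lost with a pseudocount of 0.1 (adjusted p = 0.0627). GCB titles share replicate numbers between genotypes, but deviations of same-numbered libraries correlated at 0.026, -8.06e-05 and -0.017. No shared deviation was seen, and the numbers were not used as pairs, though such correlations cannot exclude a shared litter or day. With a replicate block 0 genes were called, as without it. In simulated libraries, the unadjusted p of the genes left unchanged fell below its level too often in comparisons with BMPC. Those p-values may therefore be too small. The lower depth of BMPC limits what can be seen of low genes there, among them Bcl2l1, Bcl2l11, Bbc3 and Bak1.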
